A study of Mus musculus with 198 samples.

Results

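Potassium channels other than the inward rectifiers were followed through whole hippocampus and whole striatum of the Hybrid Mouse Diversity Panel, a set of inbred mouse strains. The members were all array probes whose gene symbol starts with Kcn but not with Kcnj, which gave 100 probes of 68 genes, out of 25697 probes of 16593 genes on the Illumina array. The hippocampus was measured on 100 arrays of 99 strains and the striatum on 98 arrays of 97 strains, and 96 strains had both tissues. The strains were 29 classical inbred strains (28 in striatum), 30 BXD, 28 AXB/BXA and 11 BXH recombinant inbred strains (10 in striatum), and a strain labelled B6Cc3. BXD strains descend from B6 and DBA, AXB/BXA strains from B6 and AJ, and BXH strains from B6 and C3H. All animals were males bought as young adults from a single supplier, and per the study's methods these strains were used in fear conditioning tests. A strain was measured once in each tissue (2 arrays named B6Cc3 were averaged), so that differences between strains hold animal and technical differences too.

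Potassium channels let potassium ions leave the cell and so set the resting potential, end the action potential and time the next one. Pore-forming subunits of the Kcna, Kcnb, Kcnc and Kcnd families open on depolarization, those of the Kcnf, Kcng, Kcns and Kcnv families are called silent because they form no channel alone and modify others, Kcnq and Kcnh channels hold back repetitive firing, Kcnk channels (with tandem pore domains) carry leak current, and Kcnm, Kcnn, Kcnt and Kcnu channels respond to calcium, sodium or pH. Kcnab, Kcnip and Kcne subunits bind the pore and alter its gating or trafficking. Hippocampal pyramidal and granule cells and the spiny projection neurons of the striatum fire in different patterns, and their potassium currents have long been studied for that reason.

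The averages of Drd1, Drd2 and Prox1 differed between the tissues as labelled, and 1 array was an exception. With both tissues normalized jointly, the dopamine receptor Drd1 averaged 8.07 in hippocampus and 12.63 in striatum on the log2 scale, Drd2 averaged 6.44 and 10.82 in the same order, and the granule cell factor Prox1 averaged 8.90 in hippocampus and 7.15 in striatum. Wfs1, listed with Prox1 as a marker of hippocampal neurons, went the other way, averaging 10.42 in hippocampus and 10.94 in striatum. Among the arrays, that labelled KK striatum was the exception. With each tissue normalized on its own, its mean over the 5 striatal neuron markers found on the array (of 8 listed) was 8.15, inside the range of the hippocampus arrays (7.68 to 9.12) and below every other striatum array (10.48 to 12.65). A hippocampus array, that of AXB19b/PgnJ, detected 22.4% of probes against a median of 43.7% over all hippocampus arrays, and the striatum arrays of SM and NZW detected 35.2% and 38.7% against a median of 43.9%. Results that move without the strains of these 4 arrays are also given without them. The strain labels were checked over 442 probes outside the Kcn family with an r above 0.8 between the tissues. For 93 of the 96 strains the hippocampus array was most like the striatum array of the same label. The exceptions were AXB15/PgnJ, AXB19/PgnJ and AXB19b/PgnJ, whose tissues had r = 0.34, 0.40 and 0.31 by label, whereas the hippocampus of AXB19/PgnJ had r = 0.90 with the striatum of AXB15/PgnJ, and that of AXB15/PgnJ 0.84 with the striatum of AXB19b/PgnJ. Seen from striatum, BXD42/TyJ was most like the hippocampus of BXH6 (r = 0.57, against 0.48 by label). The striatum of BXD24a/TyJ was most like the hippocampus of BXD24b/TyJ (0.91, against 0.86). The 442 probes had been chosen with strains paired by label, which favours matches by label. The labels were used as given, and correlations between the tissues were recomputed without AXB15/PgnJ, AXB19/PgnJ and AXB19b/PgnJ. BXD42/TyJ and BXD24a/TyJ were kept there. The hippocampus of 129X1 and the striatum of X129X1, labels that may name the same strain (r = 0.95), were left unpaired because the labels differ. The deposited hippocampus signals equalled the authors' processed values and the striatum signals did not, so that tissue and processing cannot be told apart.

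The channels at the centre of the tissue comparison were the voltage-gated Kcnc4 and Kcna5 and the auxiliary subunit gene Kcnab1. Their promoter windows, 250 bases before to 50 after the transcription start, are shown because Kcna5 was detected in striatum only, because Kcnc4 had the widest measured gap toward hippocampus and Kcnab1 toward striatum, and because Kcnab1 has 3 annotated starts and 3 probes that did not behave alike. The sequences are the RefSeq reference (GRCm38.p6) of the B6 strain. Of the 68 genes, 51 had a window. Capitals mark a GC box (GGGCGG), an E-box (CACGTG) or a TATA box (TATAAA) on either strand, which 35.7%, 7.15% and 13.6% of 32851 windows of all genes held.
Kcnc4, chr3:107458849-107459148, minus strand: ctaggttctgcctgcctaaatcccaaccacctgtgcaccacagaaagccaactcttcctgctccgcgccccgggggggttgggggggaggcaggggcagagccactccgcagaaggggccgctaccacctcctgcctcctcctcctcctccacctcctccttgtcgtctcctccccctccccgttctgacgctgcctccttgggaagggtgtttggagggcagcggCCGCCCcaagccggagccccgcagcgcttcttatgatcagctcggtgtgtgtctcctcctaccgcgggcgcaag
Kcna5, chr6:126535506-126535805, minus strand: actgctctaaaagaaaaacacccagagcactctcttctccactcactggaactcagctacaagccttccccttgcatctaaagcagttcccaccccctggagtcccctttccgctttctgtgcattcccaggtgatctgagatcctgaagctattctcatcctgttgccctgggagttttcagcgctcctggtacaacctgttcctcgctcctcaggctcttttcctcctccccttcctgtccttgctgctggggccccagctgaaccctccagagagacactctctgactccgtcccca
Kcnab1 start 1, chr3:64948962-64949261, plus strand: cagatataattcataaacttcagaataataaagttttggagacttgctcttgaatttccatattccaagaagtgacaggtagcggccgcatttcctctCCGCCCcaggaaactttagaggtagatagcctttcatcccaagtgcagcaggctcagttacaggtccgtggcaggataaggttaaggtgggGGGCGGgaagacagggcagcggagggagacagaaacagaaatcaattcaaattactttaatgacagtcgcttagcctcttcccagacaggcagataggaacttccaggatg
Kcnab1 start 2, chr3:65108764-65109063, plus strand: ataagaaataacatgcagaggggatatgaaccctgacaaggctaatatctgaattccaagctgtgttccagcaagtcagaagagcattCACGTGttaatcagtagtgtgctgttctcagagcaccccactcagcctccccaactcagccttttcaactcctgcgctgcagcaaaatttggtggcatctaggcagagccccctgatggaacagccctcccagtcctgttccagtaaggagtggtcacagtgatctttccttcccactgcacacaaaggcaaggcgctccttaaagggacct
Kcnab1 start 3, chr3:65187853-65188152, plus strand: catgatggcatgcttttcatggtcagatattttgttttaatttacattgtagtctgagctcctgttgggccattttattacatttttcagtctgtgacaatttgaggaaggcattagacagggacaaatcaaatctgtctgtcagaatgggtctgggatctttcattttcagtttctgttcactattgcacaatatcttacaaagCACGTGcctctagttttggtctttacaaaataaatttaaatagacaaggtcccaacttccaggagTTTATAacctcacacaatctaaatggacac

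The Kcnc4 window was 66.7% G or C with 17 CpG pairs, against medians of 52.7% and 7 over all windows, and held 1 GC box. The Kcna5 window was 55% G or C with 4 CpG pairs and none of the 3 motifs. Start 1 of Kcnab1 was 46.7% G or C with 7 CpG pairs and 2 GC boxes, whereas starts 2 and 3, at 50.3% and 36.7% G or C, had 3 and 1 CpG pairs and an E-box each, and start 3 also a TATA box on the other strand. The files do not say which start a Kcnab1 probe reads.

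Of the 100 probes, 51 (40 genes) were detected on at least 20% of the arrays of either tissue and were compared between tissues, and 45 (36 genes) were detected on at least 20% of the arrays of both and were compared across strains. The other 49 probes fell below that detection in both tissues. For 28 genes no probe passed: Kcna10, Kcna3, Kcna4, Kcna7, Kcnd1, Kcnd3, Kcne1, Kcne3, Kcne4, Kcng1, Kcng3, Kcnh4, Kcnh5, Kcnh6, Kcnh7, Kcnk15, Kcnk18, Kcnk5, Kcnk7, Kcnk9, Kcnmb1, Kcnmb2, Kcnn3, Kcnn4, Kcnq1, Kcnrg, Kcns3 and Kcnv2. Some of these are well known in hippocampus or striatum, such as Kcna4 and Kcnd3, whose products carry A-type current, and the array gave no usable level for them.

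Between the tissues, 4 Kcn probes of 3 genes were higher in hippocampus and 9 probes of 6 genes higher in striatum by at least 2-fold (limma across 12775 probes, Benjamini-Hochberg adjusted p under 0.05). Over all probes tested 3.89% were called higher in hippocampus and 3.53% higher in striatum by the same rule. Without the fold limit, 21 of the 51 Kcn probes passed the test toward hippocampus and 27 toward striatum, against 36.7% and 38.6% of all probes tested. The Kcn probes differed by a median of 0.66 in size on the log2 scale, against 0.24 over all probes tested, and their median signed difference, hippocampus minus striatum, was -0.26, against -0.01. The fold calls depended on the background correction. With none, or with the authors' processed values, 1 Kcn probe was called toward hippocampus (Kcnc4) and 4 toward striatum (Kcna5, 2 of Kcnab1 and 1 of Kcnk2). Every named probe kept its direction. No share of all probes is given for these settings, so the drop in calls may not be particular to the Kcn probes. In whole tissue, fewer cells of a type and less RNA per cell cannot be told apart.

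**Figure D1:**
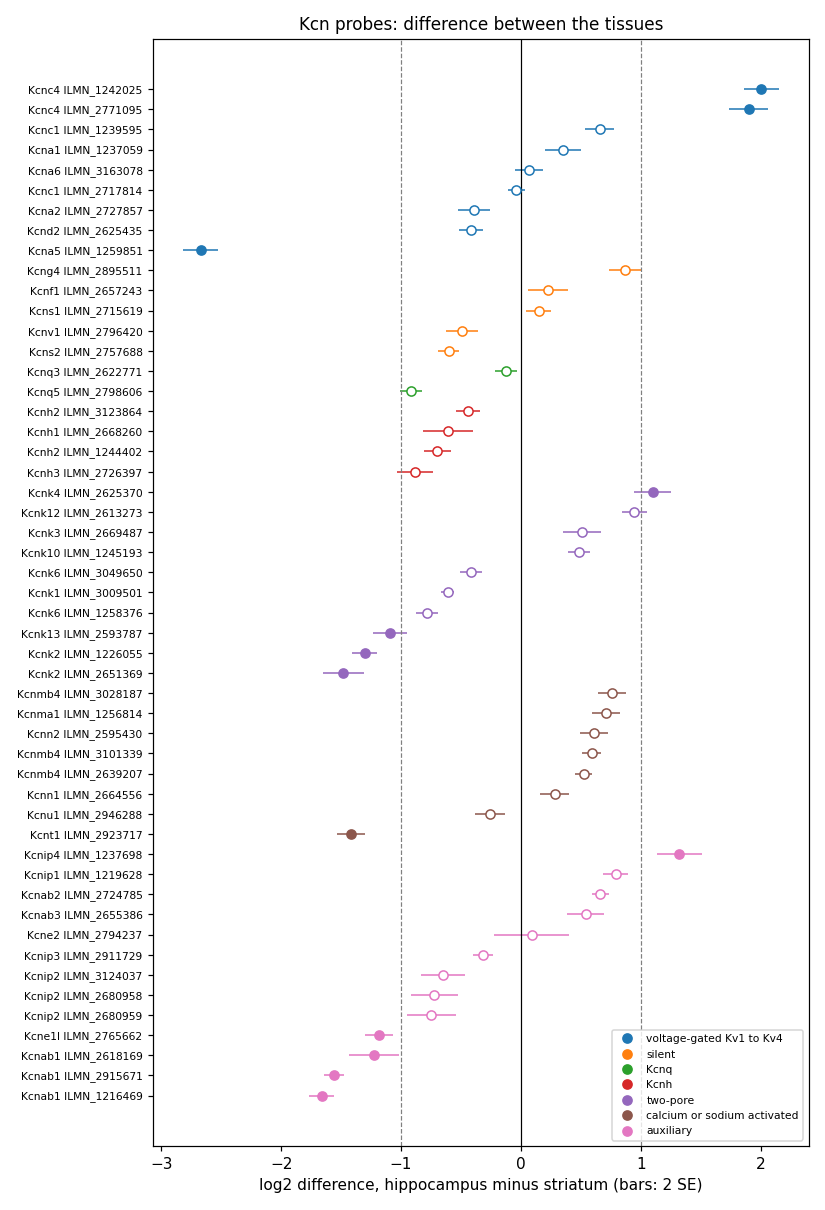
Difference between hippocampus and striatum of the 51 Kcn probes tested, in log2 units (positive is higher in hippocampus), with bars of 2 standard errors, ordered by class. Filled points passed the test and differed by at least 2-fold (dashed lines), 4 to the right and 9 to the left. Kcnc4 ILMN_1242025 lies at 2.004 and Kcna5 at -2.67, a fitted value that is no measured size because Kcna5 was at background in hippocampus.

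Kcnc4 encodes a channel of the fast Shaw type, which repolarizes the membrane quickly. On the jointly normalized scale its probe ILMN_1242025 had a lowest value of 6.20, a median of 7.76 and a highest value of 8.37 in hippocampus, against 4.66, 5.71 and 7.83 in striatum. It was higher in hippocampus in 96 of 96 strains, and 78 of 97 striatum values lay below every hippocampus value. The difference was 2.004 ± 0.07 (SE), 4.01-fold, with an adjusted p of 7.5e-68 (limma). The probe was detected on 24 striatum arrays, and with striatum values raised to the lowest detected signal of each array hippocampus was at least 2.69-fold higher. The second probe, ILMN_2771095, ran from 11.38 over a median of 11.97 to 13.99 in hippocampus, against 8.78, 10.09 and 12.32 in striatum, and differed by 1.90 ± 0.08 (3.73-fold, adjusted p 3.1e-57, limma). It was higher in hippocampus in 95 of 96 strains, KK being the exception. The highest hippocampus value was that of AXB19b/PgnJ.

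In striatum the level of Kcnc4 varied with markers of projection neurons of cortex or hippocampus. Across 97 striatum arrays, ILMN_2771095 had a Spearman's rho of 0.91 with the mean of Slc17a7 and Tbr1, the 2 of 3 listed markers on the array, and ILMN_1242025 a rho of 0.83, where probes and markers of an array share its RNA and hybridization. The marker mean itself ran from 6.49 to 12.52 over the striatum arrays, a wider range than in hippocampus (8.98 to 11.94), and was highest on the array labelled KK striatum. Without the 4 strains named above the rho values were 0.93 and 0.87. The same probes ran opposite to the striatal neuron markers, at rho -0.77 and -0.52. The part of these neurons in the Kcnc4 level was not tested.

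Kcnk4, a leak channel opened by stretch and lipids, and Kcnip4, an auxiliary subunit of A-type channels that binds calcium, were the other probes higher in hippocampus. Kcnip4 had a lowest value of 5.004, a median of 8.11 and a highest value of 8.71 in hippocampus, against 4.86, 6.86 and 8.29 in striatum, a difference of 1.32 ± 0.09 (2.49-fold, adjusted p 9.4e-31, limma). It was higher in hippocampus in 87 of 96 strains. Kcnk4 ran from 4.68 over 6.74 to 7.60 in hippocampus, against 4.799, 5.37 and 8.32 in striatum, a difference of 1.10 ± 0.08 (2.14-fold, adjusted p 3.1e-31, limma). It was detected on 87 hippocampus and 20 striatum arrays, so that its size rests mostly on striatum values at background: with these raised to the lowest detected signal, hippocampus was at least 1.301-fold higher. In striatum it too followed the projection neuron markers (rho 0.77). The 2 tissues overlapped for both genes, and the exceptions included AXB19b/PgnJ for each and KK for Kcnk4.

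Kcna5, a delayed rectifier of the Shaker family, was detected on 0 of 100 hippocampus arrays and on 95 of 98 striatum arrays. Hippocampus values ran from 4.71 over a median of 5.08 to 5.99, against 5.15, 7.88 and 9.11 in striatum, and 95 of 97 striatum values lay above every hippocampus value. The fitted difference was -2.67 ± 0.07 (adjusted p 4.9e-88, limma). Since the probe was not above background in hippocampus, the size is a bound: striatum was at least 2.94-fold higher, from its mean of 7.81 against a hippocampus mean of 6.26 with values raised to the lowest detected signal of each array. The striatum arrays at or near hippocampus level were those labelled CAST (5.18, normalized within striatum) and KK (5.28). Kcna1 and Kcna6, its neighbours on chromosome 6, differed by 0.35 ± 0.08 and 0.07 ± 0.06.

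Kcnab1 encodes a beta subunit that speeds inactivation of Shaker channels. ILMN_2915671 ran from 10.71 over 11.98 to 12.23 in hippocampus, against 11.64, 13.55 and 13.91 in striatum, a difference of -1.56 ± 0.04 (2.95-fold, adjusted p 2.9e-89, limma). ILMN_1216469 ran from 8.77 over 11.45 to 12.01 in hippocampus, against 10.81, 13.18 and 13.55 in striatum, a difference of -1.66 ± 0.05 (3.17-fold, adjusted p 1.9e-76, limma). For both, nearly all striatum values lay above the whole hippocampus range, 95 and 93 of 97. ILMN_2618169 was dimmer and far more scattered, from 5.99 over 7.74 to 8.53 in hippocampus, against 5.42, 9.12 and 10.02 in striatum, a difference of -1.22 ± 0.10 (2.34-fold, adjusted p 9.3e-24, limma). It was higher in hippocampus in 13 of 96 strains.

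**Figure D2:**
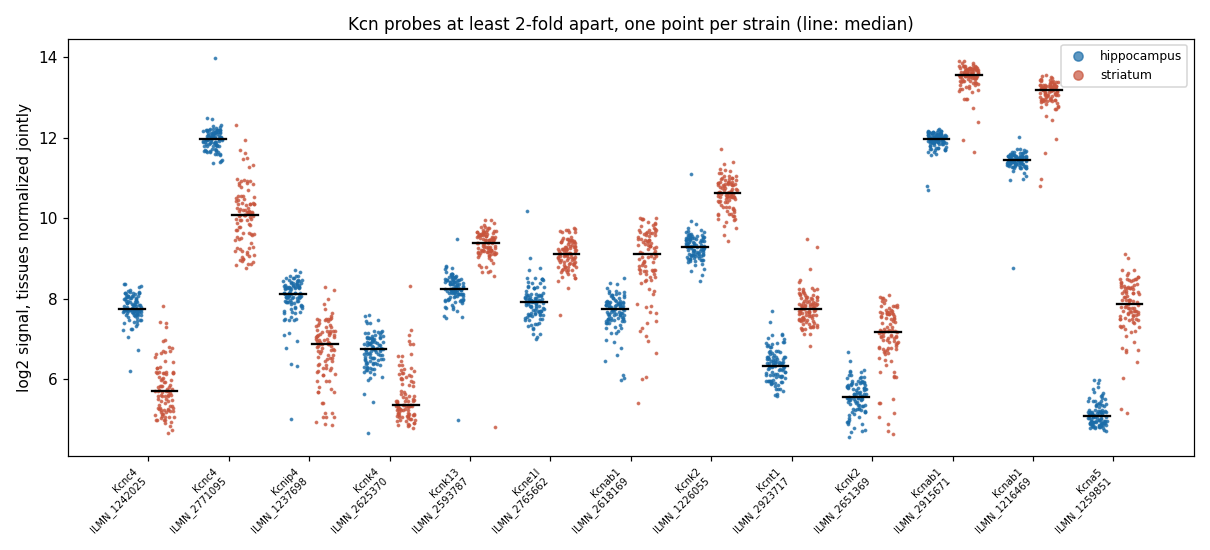
Log2 signal, tissues normalized jointly, of the 13 Kcn probes that differed by at least 2-fold, with 1 point per strain, hippocampus left of striatum, and a line at each median. Kcna5 and both bright probes of Kcnab1 barely overlap between the tissues, while Kcnab1 ILMN_2618169, Kcnk2 ILMN_2651369 and Kcnip4 have tails of low strains that reach into the other tissue's range.

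The remaining genes higher in striatum were leak channels, a sodium-activated channel and a small auxiliary subunit. Kcnk2, a leak channel opened by stretch and lipids, had 2 probes: ILMN_1226055 with a median of 9.30 in hippocampus (8.45 to 11.10) against 10.62 in striatum (9.45 to 11.73), a difference of -1.31 ± 0.05, and ILMN_2651369 with a median of 5.57 in hippocampus (4.57 to 6.67) against 7.18 in striatum (4.63 to 8.09), a difference of -1.48 ± 0.09. ILMN_2651369 was detected on 6 hippocampus and 83 striatum arrays, and with hippocampus values raised to the lowest detected signal of each array striatum was at least 1.71-fold higher. Kcnt1, which carries a potassium current switched on by sodium, had a median of 6.34 in hippocampus (5.58 to 7.69) against 7.75 in striatum (6.82 to 9.48), a difference of -1.42 ± 0.06. Kcne1l, an X-linked member of the Kcne family, had a median of 7.93 in hippocampus (7.01 to 10.19) against 9.12 in striatum (7.61 to 9.76), a difference of -1.18 ± 0.06. Kcnk13 had a median of 8.25 in hippocampus (4.997 to 9.48) against 9.39 in striatum (4.82 to 9.97), a difference of -1.09 ± 0.07. Adjusted p-values of these 5 probes ran from 5.4e-62 to 1.1e-34 (limma). In Kcnk2 ILMN_1226055, Kcnt1 and Kcne1l, AXB19b/PgnJ was the 1 strain of 96 that was higher in hippocampus.

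By class, the differences were mixed in direction, where 36.7% of all probes passed toward hippocampus and 38.6% toward striatum without a fold limit. Of 9 probes of the voltage-gated Kcna to Kcnd families 4 passed the test toward hippocampus and 3 toward striatum by that rule, and of 10 Kcnk probes 4 and 6. All 4 Kcnh probes were higher in striatum, from -0.89 (Kcnh3) to -0.44, and so were both Kcnq probes (Kcnq5, -0.92, and Kcnq3, -0.13), none by 2-fold. Of 8 probes of calcium- or sodium-activated channels, 6 were higher in hippocampus, among them Kcnma1 (0.71), the pore of the large-conductance calcium-activated channel, all 3 probes of its beta subunit Kcnmb4 (0.52 to 0.76) and Kcnn2 (0.61), which carries part of the afterhyperpolarization. The exceptions were Kcnt1 and Kcnu1 (-0.26). Of 13 auxiliary probes, 4 were higher in hippocampus and 8 in striatum, and the 3 A-type partners detected beside Kcnip4 split, with Kcnip1 at 0.79, Kcnip3 at -0.32 and 3 probes of Kcnip2 between -0.75 and -0.65. Just outside the 2-fold limit lay Kcnk12 (0.95), Kcnq5, Kcnh3 and Kcng4 (0.87).

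Of the 4 strain sets, BXH had the smallest difference between the tissues for 11 of the 13 called probes and AXB/BXA for 2. Kcnc4 ILMN_1242025 and ILMN_2771095 differed by 1.27 and 1.29 among BXH strains, against 2.22 and 2.08 among BXD, 2.15 and 2.28 among AXB/BXA and 1.89 and 1.55 among the classical inbred strains. Kcnip4 differed by 0.35 among BXH strains, against 1.05 among BXD, 1.87 among AXB/BXA and 1.41 among the classical inbred strains. The exceptions were Kcnk2 ILMN_2651369, at -1.73 among BXH strains, against -1.86 among BXD, -1.13 among AXB/BXA and -1.35 among the classical inbred strains, and Kcnab1 ILMN_2618169, at -1.51, -1.63, -0.82 and -1.07 in the same order. The striatum arrays of BXH strains also had the highest median of the projection neuron markers, 10.48 against 9.33 in BXD, 8.97 in AXB/BXA and 10.002 in the classical inbred strains, and the lowest median of the striatal neuron markers, 11.85 against 12.21, 12.29 and 12.18. The differences between strain sets, and the part of these markers in them, were not tested. The count of smallest differences was made for the Kcn probes only, so it may not be particular to them.

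Across strains, whether the tissues of a strain shared a high or low level was asked with the signals normalized within each tissue, on which all later values stand. Of 45 Kcn probes, 15 were positively correlated between hippocampus and striatum over 96 strains (Pearson's r, adjusted p under 0.05 over 11746 probes), against 42.7% of all probes tested. None was negatively correlated, by Pearson's r or by Spearman's rho, against 0.111% of all probes. With either measure 8 of the 45 were below 0, and 0 of these had an unadjusted p under 0.05. The median r of the Kcn probes was 0.14, against 0.19 over all probes. Over the other settings the called count moved between 13 and 18, with no share of all probes given beside it. It was 18 without AXB19b/PgnJ, SM, NZW and KK. It was 15 without AXB15/PgnJ, AXB19/PgnJ and AXB19b/PgnJ, where Kcnh1 had r = 0.79, Kcnu1 0.68 and Kcnn1 0.59, and 15 with 129X1 paired to X129X1, both settings chosen after seeing the data.

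Kcnf1, a silent subunit that modifies Kcnb channels, was shared within each of the 4 strain sets to some degree. It ran from 8.46 over a median of 9.85 to 11.31 in hippocampus and from 8.60 over 9.81 to 11.02 in striatum, with r = 0.75 and rho = 0.76 (permutation p 1e-05 each, the smallest that 100000 permutations can give, and adjusted p 6.3e-17). Without the 2 strains farthest from the hippocampus median r was 0.75. It was 0.81 within BXD, 0.84 within AXB/BXA, 0.68 within the classical inbred strains and 0.41 within 10 BXH strains. Of the founders, B6 was high in both tissues (10.82 in hippocampus and 10.62 in striatum), and AJ (9.67 and 9.11) and C3H (9.28 and 9.54) were lower in both. DBA lay between at 10.15 and 9.74.

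Kcnh1, which encodes the ether-a-go-go channel, was set apart by a few inbred strains. In hippocampus SWR, SM, I and NON were the lowest strains at 5.80, 5.82, 6.08 and 7.64, and in striatum the same 4 were lowest at 5.88, 8.34, 6.88 and 7.93, against medians of 9.08 in hippocampus and 9.83 in striatum. The probe had r = 0.70 and rho = 0.52 (permutation p 1e-05 each, adjusted p 2.6e-14), and r = 0.59 without SWR and SM. Within AXB/BXA r was 0.15, and there 0.64 without AXB19b/PgnJ and 0.66 without AXB15/PgnJ, AXB19/PgnJ and AXB19b/PgnJ, comparisons chosen after seeing the data. CAST was among the 2 highest strains in both tissues, at 10.45 in hippocampus and 11.02 in striatum.

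Kcnk13 and Kcnu1 each had a strain that stood below all others in both tissues. For Kcnk13, a tandem-pore leak channel that microglia are known to use, CAST had 4.97 in hippocampus and 4.83 in striatum, whereas the next lowest strains had 7.47 and 8.63. Its r of 0.75 (permutation p 3e-05, adjusted p 1.5e-17) rested on that strain: without CAST and AXB19b/PgnJ it was 0.41, close to the rho of 0.41 over all strains (permutation p 5e-05). For Kcnu1, the pH-sensitive channel of sperm, PL was lowest at 5.13 in hippocampus and 5.74 in striatum, and the probe had r = 0.53 and rho = 0.63 (permutation p 1e-05 each, adjusted p 1.6e-07). The highest hippocampus value of Kcnu1, 9.03, was that of AXB19b/PgnJ, and without that strain and PL r was 0.61. Within AXB/BXA r was 0.17, and 0.60 there without AXB19b/PgnJ or 0.59 without the 3 strains. The paper proposes that a variant within a probe's sequence might change its binding. The part of such variants in the low strains of these probes, or of other probes named here, was not tested.

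**Figure D3:**
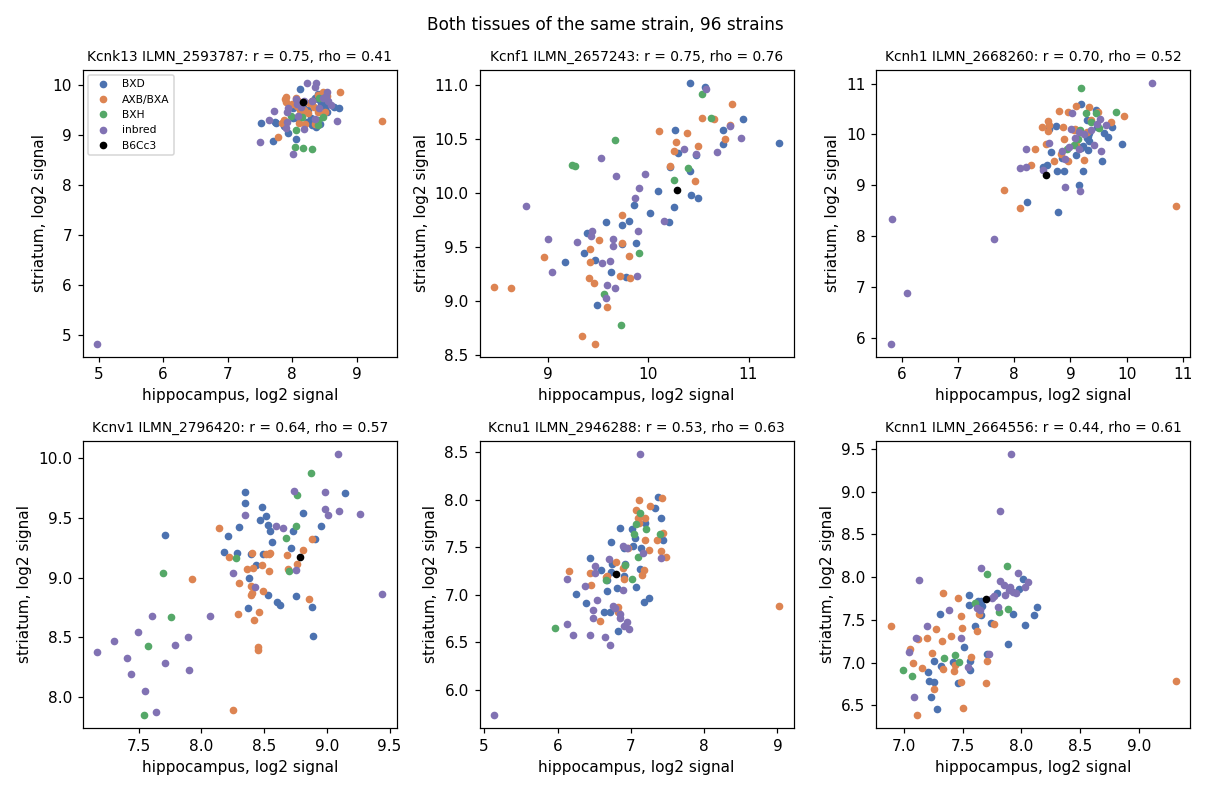
Log2 signal of the 6 Kcn probes with the highest r, hippocampus on the horizontal and striatum on the vertical axis, each normalized within its tissue, with 1 point per strain coloured by strain set (inbred stands for the classical inbred strains). Kcnf1 is shared across the whole range, CAST alone sits at the lower left for Kcnk13, and AXB19b/PgnJ is the lone point at the right for Kcnu1 and Kcnn1.

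Kcnv1 and Kcnn1 were shared in some strain sets and not in others. Kcnv1, a silent subunit of brain, had r = 0.64 and rho = 0.57 (permutation p 1e-05 each, adjusted p 2.1e-11). It was 0.84 within the classical inbred strains and 0.86 within BXH, but -0.11 within BXD and 0.24 within AXB/BXA. C3H was low in both tissues (7.40 in hippocampus and 8.33 in striatum), while B6 (8.59 and 9.43), DBA (9.27 and 9.54) and AJ (8.42 and 8.92) were not. Kcnn1, a small-conductance calcium-activated channel, had r = 0.44 (permutation p 5e-05) and rho = 0.61 (permutation p 1e-05, adjusted p of r 3.3e-05). Its r was 0.70 within BXD, 0.85 within BXH and 0.56 within the classical inbred strains, but -0.12 within AXB/BXA, where it was 0.09 without AXB19b/PgnJ and 0.039 without the 3 strains. B6 was low in both tissues (7.09 and 6.60), DBA (7.62 and 7.64) and C3H (7.93 and 7.83) higher in both. Differences of r between strain sets were not tested.

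Weaker sharing was seen for Kcne1l (r = 0.36), Kcnk6 ILMN_1258376 (0.33), Kcnh2 ILMN_1244402 (0.33), Kcna1 (0.32) and 5 more probes, Kcnip3, Kcnn2, Kcns2, Kcna6 and Kcnc1 ILMN_1239595, between 0.24 and 0.31. Adjusted p-values of the first 4 were 0.0013, 0.0035, 0.0037 and 0.0049, their rho values 0.37, 0.39, 0.26 and 0.34, and the permutation p-values ran from 0.00069 to 0.0016 for r and from 0.00014 to 0.011 for rho. Without the 2 strains farthest from the hippocampus median their r was 0.37, 0.44, 0.26 and 0.33. For Kcnh2, the gene of the rapid delayed rectifier of heart, NZB was lowest in both tissues (5.72 in hippocampus and 6.95 in striatum) with CAST also low (6.37 and 7.26). The other Kcnh2 probe, ILMN_3123864, had r = 0.07. For Kcna1, a Shaker channel of axons, DBA was the lowest hippocampus value at 6.81, with 7.59 the next, but had 8.63 in striatum.

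Of the 13 probes called between tissues, 11 were tested for r, and 2 of these, Kcnk13 and Kcne1l, passed, beside 15 of 45 Kcn probes and 42.7% of all probes. The overlap was not tested. Kcnc4 ILMN_1242025 and ILMN_2771095 had r = 0.07 and 0.13, Kcnip4 -0.02, Kcnk4 0.15, Kcnt1 0.01, Kcnk2 ILMN_1226055 0.15 and the Kcnab1 probes 0.14, 0.02 and -0.11. Without AXB19b/PgnJ, SM, NZW and KK, 5 of the 11 passed: Kcnk13, Kcne1l, Kcnab1 ILMN_2915671 (0.33), Kcnc4 ILMN_2771095 (0.28) and Kcnk2 ILMN_1226055 (0.27). No share of all probes is given for that setting.

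The strains fell into separate levels for a few Kcn probes. The rule asked for a mixture of 2 normal curves that described the values clearly better than 1, with means at least 3 SD apart and at least 6 strains in the smaller. In hippocampus it found 2 of 45 Kcn probes, Kcnab1 ILMN_2618169 and Kcnv1, against 6.09% of all probes, and in striatum 4, Kcnab1 ILMN_2618169 and the 3 probes of Kcnip2, against 8.59%. These counts depended on the settings, from 1 to 4 probes in hippocampus and 2 to 7 in striatum. The other settings were fitted to the Kcn probes only, so no share of all probes stands beside them.

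For Kcnv1, 19 strains were low in hippocampus (mean 7.59) and 80 high (8.59). The low ones were BXH2, BXH4, BXH9, BXH19, BXH22, C3H, PL, BUB, AKR, LG, NZW, CAST, BTBR, RIII, C57L, I, NZB, BXD32/TyJ and AXB13/PgnJ, so 5 BXH strains shared the low level with their founder C3H. The striatum values, whose 2 fitted means were 2.50 SD apart and so not called, had 14 of these strains on the low side too. Of the 96 strains with both tissues, 4 were low in hippocampus only and 5 in striatum only. BXH2 had no striatum array.

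For Kcnab1 ILMN_2618169 the low strains of the tissues were different ones. In hippocampus 6 were low, AXB6/PgnJ (5.95), AXB19b/PgnJ (6.003), C3H (6.06), BXH4 (6.42), BXH19 (6.56) and BXH7 (6.73), against a mean of 7.69 in the 93 others. In striatum 13 were low, with KK (5.45), SM (6.04), NZW (6.10), BXA12/PgnJ (6.69) and BTBR (6.99) the lowest, against a mean of 9.26 in the 84 others. BXH19 was low in both. Of 96 strains, 79 were on the same level in both tissues (permutation p 0.59), and r within the 78 strains high in both was -0.02.

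The low striatum arrays of Kcnab1 ILMN_2618169 were low for other Kcn probes as well. Those of BXA12/PgnJ, BXA2/PgnJ, BXD38/TyJ, KK, NZW and SM were at the low level for this probe and all 3 probes of Kcnip2, which encodes an A-type channel subunit. Across striatum arrays Kcnab1 ILMN_2618169 had r = 0.93 with Kcnk2 ILMN_2651369 and 0.90 to 0.91 with the Kcnip2 probes, and with the other probes of its own gene it had 0.62 (ILMN_1216469) and 0.37 (ILMN_2915671). Likewise the 2 Kcnk2 probes had r = 0.16 with each other. With Kcnip4 the r of Kcnab1 ILMN_2618169 was 0.83 in hippocampus and 0.67 in striatum, and with the Kcnip2 probes it was 0.52 to 0.67 in hippocampus. The rho values were lower, at 0.64 and 0.51 with Kcnip4 and 0.42 to 0.53 with the Kcnip2 probes in hippocampus. In striatum rho was 0.87 with Kcnk2 ILMN_2651369 and 0.79 to 0.81 with the Kcnip2 probes. Kcnk2 ILMN_2651369 was detected on too few hippocampus arrays to compare. In hippocampus AXB6/PgnJ and C3H were among the 4 lowest strains for all 3 Kcnip2 probes and Kcnip4.

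**Figure D4:**
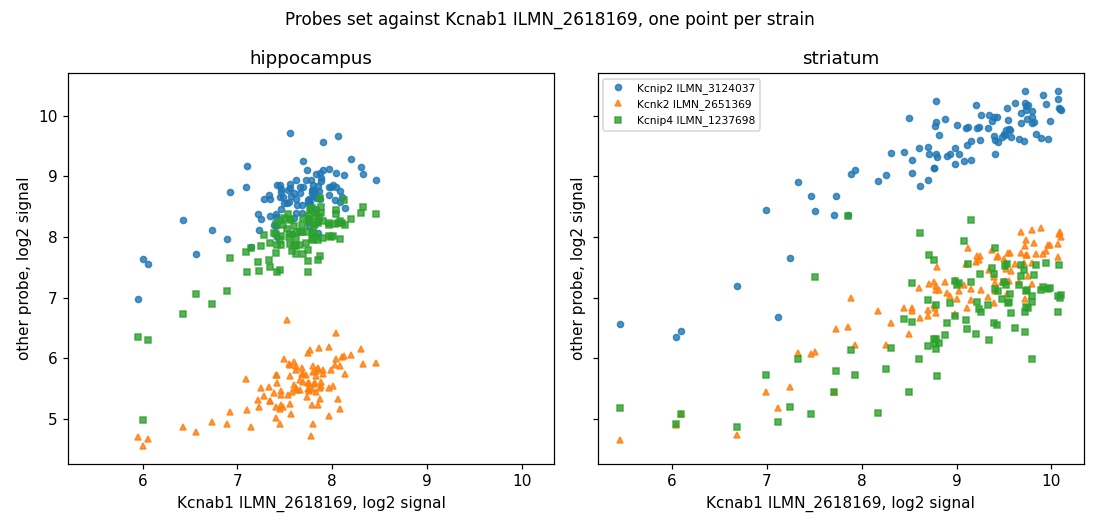
Log2 signal of Kcnip2 ILMN_3124037, Kcnk2 ILMN_2651369 and Kcnip4 against Kcnab1 ILMN_2618169, hippocampus left and striatum right, with 1 point per strain. In striatum a tail of arrays is low for all of these probes, with r = 0.90 for Kcnip2 and 0.93 for Kcnk2. A shorter tail is seen in hippocampus.

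What else was measured on those arrays was uneven. Among the 6 striatum arrays low for all 4 probes, the share of probes detected was 35.2% for SM, 38.7% for NZW and between 42.2% and 44.03% for the others, and the oligodendrocyte marker mean (4 of 5 listed genes on the array) was 10.33 to 11.33 against a median of 11.90 over all striatum arrays. Their striatal neuron marker mean was 8.15 for KK and 11.64 to 11.97 for the other 5, all below the median of 12.20 over striatum arrays. The hippocampal neuron marker mean was 8.84 to 9.50, above the median of 8.74 on each of the 6. The astrocyte marker mean was 9.73 for KK and 8.46 to 9.47 for the other 5, against a median of 9.48. Over 97 striatum arrays the rho of Kcnab1 ILMN_2618169 with the oligodendrocyte markers was 0.59, and 0.54 without the 4 strains named above, and that of Kcnk2 ILMN_2651369 was 0.59 and 0.55. The part of array quality and of these cells in the low level was not tested. Without the 4 strains, Kcnab1 ILMN_2618169 and 2 of the Kcnip2 probes kept their separate levels in striatum, while in hippocampus the level of Kcnab1 was no longer called.

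Probes of the same gene agreed only in part. In hippocampus 12 pairs of probes of 6 genes had r from -0.07 (Kcnc4) to 0.80 (Kcnip2), with a median of 0.34. In striatum 14 pairs of 8 genes had r from 0.06 (Kcnc1) to 0.96 (Kcnip2), with a median of 0.52. The low value for Kcnc4 in hippocampus came with AXB19b/PgnJ, which was the highest strain for one probe and the lowest for the other, and the rho of that pair was 0.44. In striatum the Kcnc4 probes had r = 0.79.

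The spread between strains was somewhat larger than that of all probes at the median. The median SD of the 45 probes was 0.39 in hippocampus and 0.41 in striatum, against 0.36 and 0.34 over all probes. By class the median SD ran from 0.31 (Kcnq) to 0.47 (Kcnh) in hippocampus. In striatum it ran from 0.31 (Kcnq) to 0.66 (auxiliary subunits). Kcne2, an auxiliary subunit known from the choroid plexus and stomach, had the largest SD of the Kcn probes tested, 1.05 in hippocampus and 1.16 in striatum. Without background correction these were 0.501 and 0.595, and with the authors' processed values 0.509 and 0.536. It ran from 4.86 over 7.01 to 8.76 in hippocampus and from 5.07 over 6.78 to 9.32 in striatum, and the tissues did not differ by the test (0.09 ± 0.16, adjusted p 0.62, limma). Over all 96 strains the tissues of a strain did not go together, at r = 0.04 and rho = -0.00. Within the classical inbred strains r was 0.45, against -0.24 within BXD, -0.02 within AXB/BXA and -0.13 within BXH. These differences of r were not tested.

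The Kcne2 level followed the choroid plexus, which lines the ventricles beside both tissues and makes cerebrospinal fluid. All 6 listed choroid plexus markers, such as the transthyretin gene Ttr, were detected, and their mean ran from 6.21 to 9.95 over hippocampus arrays and from 6.39 to 10.54 over striatum arrays. Kcne2 had rho = 0.87 with that mean in hippocampus and 0.91 in striatum, and 0.90 and 0.91 without the 4 strains. It was the only one of 48 Kcn probes with a rho above 0.5 to that list in either tissue, against 0.774% of all probes in hippocampus and 0.686% in striatum. Whether carry-over of choroid plexus set the spread of Kcne2 was not tested.

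In striatum several other Kcn probes followed neuron markers. Of 48 probes, 7 had a rho above 0.5 and 4 a rho below -0.5 with the striatal neuron markers, against 1.44% and 3.5% of 12248 probes detected in striatum. With the projection neuron markers 7 and 2 did, against 4.0% and 0.914%. Kcnab1 ILMN_1216469 and ILMN_2915671 followed the striatal markers (rho 0.67 and 0.66) and ran opposite to the projection neuron markers (-0.51 and -0.65). Kcnip2 (0.51 to 0.67 over 3 probes) and Kcnk2 ILMN_1226055 (0.55) also followed the striatal markers. None of these was below -0.5 with the projection neuron markers. With oligodendrocyte markers 2 probes were above 0.5 and 3 below -0.5, against 4.86% and 2.25%. With astrocyte and thalamus markers 1 each was above 0.5, against 0.204% and 0.351% of all probes. No probe passed 0.5 in either direction with the markers of hippocampal neurons, microglia or endothelium or with the share of probes detected. Few of all probes did so, at most 0.367% above 0.5 and 0.147% below -0.5 for any of these. In hippocampus no list but that of choroid plexus had a probe past 0.5. There at most 0.619% of all probes were above 0.5 and 0.139% below -0.5 with anything else compared. Of the listed markers, Neurod6 in striatum and Lef1 in both tissues were not detected.

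**Figure D5:**
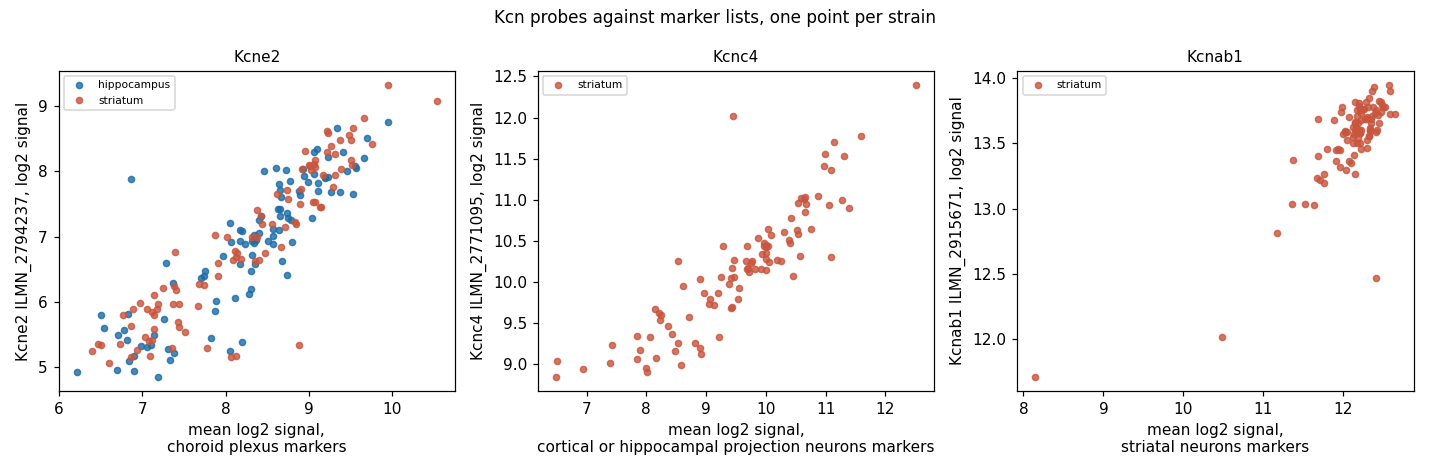
Log2 signal of Kcne2 in both tissues against the mean of 6 choroid plexus markers, and, in striatum, of Kcnc4 ILMN_2771095 against the mean of 2 projection neuron markers and of Kcnab1 ILMN_2915671 against the mean of 5 striatal neuron markers, with 1 point per array. Kcne2 goes up with its list in both tissues, and Kcnc4 runs over the widest marker range. The lowest point for Kcnab1 is the array labelled KK striatum.

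Genes outside the Kcn family that bind or accompany potassium channels were read from the same fit. The list held 18 genes, such as Dpp6 and Dpp10, partners of A-type channels, and the Hcn pacemaker channels. Of these, 13 were on the array and 18 of 22 probes (11 genes) were tested between tissues. None was called at 2-fold by limma, where 3.89% of all probes were called toward hippocampus and 3.53% toward striatum. Under the other settings none was called either, with no share of all probes given there. Without the fold limit, 10 probes were higher in hippocampus and 7 higher in striatum by adjusted and by unadjusted p under 0.05 (limma). By adjusted p, 36.7% and 38.6% of all probes were. The differences ran from -0.68 for Cntnap2, which clusters Shaker channels on axons, to 0.75 for the secreted Lgi1. Of the 18 probes, 4 were positively correlated between tissues, against 42.7% of all probes, most of all Vapa (r = 0.61), whose product anchors Kcnb channels at the junctions of the endoplasmic reticulum with the plasma membrane.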

How the data were processed

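Total RNA of whole hippocampus and whole striatum was measured on Illumina mouse arrays. For each of 25697 probes and each array the authors deposited an intensity with its detection p-value, and a table of processed intensity values for the series. Per the study's methods, these were normalized by the rank invariant option of BeadStudio. The deposited hippocampus intensity values equalled that table for 100% of entries, whereas nearly all striatum values differed from it. Whether the hippocampus values were normalized in both places or in neither could not be told. Array number limits the precision, as 1 array per strain gives no error within a strain. P-values therefore rest on a spread between strains that also holds animal and array differences. The tests treat strains as independent, and their relatedness was not corrected. No batch was given in the sources used here.

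Signals were background corrected with normexp from the detection p-values (offset 16), quantile normalized over both tissues for the tissue comparison and within each tissue for all else, and set on the log2 scale (R 4.3.3, limma 3.58.1, Python 3.11.15, numpy 2.4.6, scipy 1.17.1, pandas 2.3.3). Probes detected (p under 0.01) on at least 20% of the arrays of either tissue entered limma (12775), and of both tissues the correlations (11746). Calls needed a Benjamini-Hochberg adjusted p under 0.05 and, between tissues, at least 2-fold. Named probes (25 of 19 genes) were those called between tissues, those with separate levels, the 10 with the highest r and the 5 with the largest SD in each tissue. For 23 of them r and Spearman's rho had 100000 permutations. Probes were not filtered for strain variants in their sequence. Marker lists covered hippocampal, striatal and projection neurons, choroid plexus, oligodendrocytes, astrocytes, microglia, endothelium and thalamus. The strain was tried as a replicate block. The members, lists and alternatives were chosen with earlier results of these data known. The fits were tested on simulated data.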

Additional observations from a re-analysis of the deposited data

How the results depend on the processing

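With the authors' processed values, or without background correction, 1 Kcn probe was called higher in hippocampus and 4 in striatum, and without a fold threshold 21 and 27. Shares over all probes are given for the main settings only. With the strain as a replicate block, which pairs the tissues of a strain, the counts were 4 and 9, as in the unpaired fit, and likewise with median centring, either other detection filter and without AXB19b/PgnJ, SM, NZW and KK. The differences of named probes kept their direction in each of these settings, and 8 of the 13 called probes fell below the 2-fold limit with the authors' values and with no background correction. The spread between strains changed for 19 of 20 SDs recomputed with the authors' values and for 18 without background correction, and for 5 without the 4 strains, Kcnip4 in hippocampus (0.435, against 0.524 with them) and in striatum Kcnab1 ILMN_2618169 (0.787, against 0.952) and Kcnip2 ILMN_2680958 (0.730, against 0.8496), ILMN_2680959 (0.753, against 0.904) and ILMN_3124037 (0.646, against 0.830). Separate levels in hippocampus were called for 1 probe with the authors' values, 1 with at least 10 strains in the smaller level and 4 without the 4 strains, and in striatum for 7 without background correction and 2 with at least 10 strains.

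Of the correlations of named probes between tissues, most that changed sign were between -0.11 and 0.15 over all strains, but those of Kcnv1, Kcnn1 and Kcnh2, which were called, also did within a strain set. Within BXD, r was 0.21 for Kcnab1 ILMN_1216469, -0.10 for Kcnc4 ILMN_1242025, -0.24 for Kcne2, 0.033 for Kcnip2 ILMN_3124037, 0.068 for Kcnip4, -0.20 for Kcnk4 and -0.11 for Kcnv1. Within the classical inbred strains, r was 0.0017 for Kcnab1 ILMN_1216469, -0.0013 for Kcnab1 ILMN_2618169, -0.015 for Kcnc4 ILMN_1242025, 0.16 for Kcnip2 ILMN_3124037 and -0.094 for Kcnt1. Within AXB/BXA, r was -0.36 for Kcnab1 ILMN_2915671, -0.050 for Kcnc4 ILMN_2771095, -0.017 for Kcne2, -0.017 for Kcnh2 ILMN_1244402, -0.083 for Kcnip2 ILMN_2680959, -0.15 for Kcnk2 ILMN_1226055 and -0.12 for Kcnn1. Within BXH (chosen after seeing the data, as the next 2 settings were), r was -0.14 for Kcnab1 ILMN_2618169, -0.46 for Kcnab1 ILMN_2915671, -0.0073 for Kcnc4 ILMN_1242025, -0.45 for Kcnc4 ILMN_2771095, -0.13 for Kcne2, 0.031 for Kcnip2 ILMN_3124037, 0.29 for Kcnip4 and -0.30 for Kcnt1. Within AXB/BXA without AXB15/PgnJ, AXB19/PgnJ and AXB19b/PgnJ, r was 0.079 for Kcnab1 ILMN_1216469, -0.16 for Kcnab1 ILMN_2915671, -0.020 for Kcne2 and -0.10 for Kcnk2 ILMN_1226055. There, without AXB19b/PgnJ alone, r was 0.10 for Kcnab1 ILMN_1216469, -0.12 for Kcnab1 ILMN_2915671, -0.0078 for Kcne2, 0.044 for Kcnip2 ILMN_3124037 and -0.070 for Kcnk2 ILMN_1226055. Spearman's rho was -0.00087 for Kcne2 and -0.023 for Kcnip2 ILMN_2680959. With the authors' values r was -0.0022 for Kcnc4 ILMN_2771095 and -0.011 for Kcnt1, without background correction -0.0052 for Kcnt1, with median centring 0.0024 and centred within strain sets 0.057 for Kcnip2 ILMN_3124037. The cause of these changes was not tested. The correlations kept their sign in the other settings, among them all strains but those 3, where Kcnc4 ILMN_2771095 passed the test (0.27), and 129X1 paired with X129X1. Dim probes and the smaller strain sets, with 10 BXH strains, limit what can be read.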
